A study of Mus musculus with 64 samples.

Results

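The right ventricles of late-treated Pkp2-cKO mice were compared with those of early-treated Pkp2-cKO mice, both given the same high dose of an adeno-associated virus carrying mouse Pkp2 (AAV9:mPkp2) and both collected at week 51. The members were chosen by label alone: the 6 right ventricle (RV) libraries titled with 2.5wk (animals L1 to L6, PKP2_m1e14_2.5wk_5755_RV, _5801, _5806, _5807, _5810 and _5814 in that order) and the 5 RV libraries of the same dose without it (animals E1 to E5, PKP2_m1e14_2034_RV, _2043, _5726, _5822 and _5825 in that order), 11 of the 64 libraries of the series. All 11 mice were C57BL6 animals with both Pkp2 alleles floxed (Pkp2 fl/fl) and a tamoxifen-inducible Cre recombinase driven by the αMyHC promoter, so the deletion was aimed at cardiomyocytes and other heart cells kept the gene. Late mice received 1e+14 vector genomes per kg by a single retro-orbital injection 2.5 weeks after tamoxifen, and early mice received it 1 week before tamoxifen, as the labels give it, although some passages of the study place such dosing 1 week after. Vehicle-injected Cre-negative littermates (WT, n = 9 RV) and vehicle-injected cKO mice (n = 4 RV, which were collected earlier, so that age and the missing vector cannot be told apart) are given as descriptions. Each library is titled with 1 animal, and both vector groups hold only animals that were alive at collection.

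Plakophilin-2, the product of Pkp2, is an armadillo protein of the desmosome, the junction that ties neighbouring cardiomyocytes together at the intercalated disc and anchors their desmin filaments. Loss of PKP2 in humans is a leading genetic cause of arrhythmogenic right ventricular cardiomyopathy, in which the right ventricle dilates, scars and becomes prone to arrhythmia. The late vector reached hearts in which structural disease was already under way. The comparison sets the RV transcriptomes of both dosing times side by side at the same late endpoint. Dosing time cannot be told apart from time since the vector or from survival to collection.

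Several libraries stood apart before any test. Late library L6 carried Xist, the RNA of the inactive X chromosome, at 263 CPM together with the Y-linked Ddx3y at 99.5 CPM. The left ventricle (LV) library titled with the same animal number had Xist at 3064 CPM and Ddx3y at 0. CPM here means estimated counts scaled to a library total of 1e+06 after normalisation between libraries, with mitochondrially encoded genes left out. The other 10 RV libraries carried one of these genes and were at or below 1.86 CPM for the other. Over 3495 genes with a mean of at least 50 CPM, the late libraries L1 and L6 were also the closest of all 496 pairs of RV libraries, with a median absolute log2 difference of 0.102, against 0.281 for the middle pair. Both held traces of atrial transcripts: Myl7, the atrial regulatory light chain, was 4.12 CPM in L1 and 2.4 CPM in L6, at most 0.233 CPM in the other 4 late libraries and 0 in all 5 early libraries. Whether L6 holds RNA of more than 1 animal was not tested. The count over all genes is therefore also given without L6, and the counts of most lists without both L1 and L6 (late n = 4), a choice made after the data were seen. Leaving out 1 library moved many list counts by over 1.5 times, and those counts stand beside the lists described.

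The RV libraries held between 10.5 M and 14 M estimated counts each (M, 1e+06 counts; median 12.4 M), of which 7.39 M to 9.79 M remained after 37 mitochondrially encoded genes were set aside. Those genes took 29.8 ± 4.08% of counts in late RVs and 28.9 ± 2.91% in early RVs (SD, n = 6 and 5; exact two-sided permutation test, p = 0.673, where 0.00216 is the smallest p this design allows). The ventricular identity of the tissue was plain in all 11 libraries: Myl2, the ventricular regulatory light chain, was between 3605 and 5659 CPM, and Myh6, the main adult myosin of the mouse heart, between 12763 and 22580 CPM. On the first component of the 11 libraries, 5 late animals lay between 21.1 and 32.9, all 5 early animals between -33.7 and -19.5, and late animal L2 at -10.5, nearer to the early ones. The 4 libraries with high Xist (L3, L4, E1 and E3) were the highest on the second component in their groups. Animal L2 recurs below as the lowest late value of most genes that rose and the highest late value of most that fell: it was so for 471 of 659 called higher genes (71.5%) and 412 of 524 called lower genes (78.6%).

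**Figure D1:**
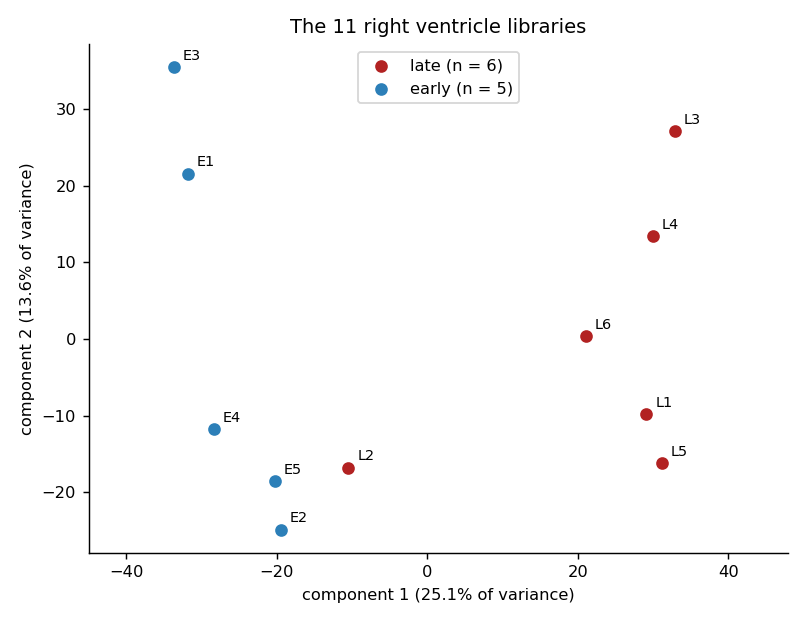
Principal components of log2(CPM + 1) in the 11 RV libraries, with component 1 (25.1% of the variance) on the x axis and component 2 (13.6%) on the y axis. Red points are late and blue points early animals, each marked with its name. Late animals other than L2 lie at 21.1 to 32.9 on the x axis, early animals at -33.7 to -19.5, and L2 at -10.5.

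The vector's own gene, Pkp2, lies on chromosome 16 (GRCm39, 16031144 to 16090586, plus strand), and transcripts of the vector are counted under the same gene. Its level was 1060, 1791 and 3804 CPM in late RVs (lowest, median and highest animal, as throughout), against 1228, 1174, 497, 1845 and 1768 CPM in early RVs (animals in the order given above). The groups overlapped, and late animal L5 was the highest of all. The difference did not pass the test (log2 fold change 0.58 ± 0.35 (SE), adjusted p = 0.332; exact two-sided permutation test of CPM, p = 0.251). The 9 WT RVs had 123 to 185 CPM (median 151) and the 4 cKO RVs 38.7 to 100 CPM, and every animal of both vector groups stood above them.

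Late and early RVs nevertheless differed in many other genes. Of 13253 genes tested with edgeR's quasi-likelihood test at a Benjamini-Hochberg adjusted p below 0.05, 1183 (8.93%) were called, 659 higher (4.97%) and 524 lower (3.95%) in late RVs. Genes that rose did so by more than those that fell: 270 of the higher genes and 40 of the lower genes changed over 2-fold, and the median change was 0.86 for higher genes and -0.53 for lower genes on the log2 scale. Late and early libraries did not overlap for 655 of the tested genes (4.94%), among them 291 of the called higher and 226 of the called lower genes. Without L6 the count was 684, without both L1 and L6 it was 98 (88 higher, 10 lower), and without L2 it was 1846. A test that lets each group have its own variance, on log2(TPM + 1), called 17 genes, 15 of them higher. That test fits no spread in common to both groups.

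The genes with the smallest adjusted p (all 0.00249) were Ankrd1, Cilp and Itgbl1. Ankrd1 is mainly a cardiomyocyte gene and Cilp mainly a fibroblast gene in the heart. Their promoters are shown as RefSeq gives them on GRCm38.p6, 250 bases before to 50 bases after the start of the transcript, because the late and early animals did not overlap for either gene. Capitals mark matches to the MCAT element, the core bound by TEAD factors, searched as CATTCC on either strand (read as GGAATG where it lies on the opposite strand). The AP-1 element was searched in the same way as TGACTCA. Ankrd1 lies on the minus strand at chr19:36119795-36120094, and Cilp on the plus strand at chr9:65264930-65265229.
Ankrd1: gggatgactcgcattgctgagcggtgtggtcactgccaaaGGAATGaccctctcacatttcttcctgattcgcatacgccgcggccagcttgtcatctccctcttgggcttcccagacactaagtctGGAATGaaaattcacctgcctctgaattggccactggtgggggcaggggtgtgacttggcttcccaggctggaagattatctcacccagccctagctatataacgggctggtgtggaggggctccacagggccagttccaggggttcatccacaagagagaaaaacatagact
Cilp: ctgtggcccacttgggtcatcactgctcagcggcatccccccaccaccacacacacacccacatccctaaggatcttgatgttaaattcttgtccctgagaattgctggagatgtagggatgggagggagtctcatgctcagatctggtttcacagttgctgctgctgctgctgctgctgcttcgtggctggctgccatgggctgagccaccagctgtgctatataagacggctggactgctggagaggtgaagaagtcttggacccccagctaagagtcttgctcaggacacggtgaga
The Ankrd1 window held 2 MCAT matches, both on the opposite strand, 210 and 123 bases before the start site, and no AP-1 match. No match to either was in the windows of Cilp or Itgbl1. The MCAT letters occurred in 14.6% of 591 promoters of called higher genes and 14.3% of 503 promoters of called lower genes, against 12.4% of 12200 promoters of tested genes and 14.7% of all 32851 promoters in the table. The AP-1 letters occurred in 4.91% and 4.97% of the promoters of called higher and called lower genes, against 3.68% of those of tested genes and 5.2% of all. These matches are descriptions of letters, not of binding.

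Matrix and fibroblast lists held many genes that rose in late RVs. Of 19 tested markers of the activated fibroblast, the matrix-secreting state that cardiac fibroblasts enter after injury, 15 were called higher and none lower, with a median log2 fold change of 1.71, against 0.01 over all genes. The level of Cilp was 28.7, 152 and 218 CPM in late RVs and 9.36, 6.73, 9.92, 9.58 and 7.12 CPM in early RVs. Cilp encodes a matrix protein secreted by cardiac fibroblasts, and its lowest late animal, L2, was still above every early animal. It rose (log2 fold change 4.03 ± 0.41, adjusted p = 0.00249). For Postn, late RVs gave 121, 402 and 567 CPM, and early RVs gave 87.9, 72, 65.2, 74.1 and 76.4 CPM. Periostin, the product of Postn, is the classical product of the activated fibroblast, and here too the groups did not overlap. Its change passed the test (log2 fold change 2.32 ± 0.29, adjusted p = 0.00336). Itgbl1 was at 26.2, 64.2 and 86.6 CPM in late RVs, against 8.44, 7.57, 9.56, 9.98 and 14.4 CPM in early RVs. Itgbl1, an integrin beta-like secreted protein, showed the same separation and rose (log2 fold change 2.64 ± 0.29, adjusted p = 0.00249). In a bulk sample, more cells of a type and more RNA per cell cannot be told apart. Summed over the 20 listed markers, late RVs had 598 to 2202 CPM, early RVs 450 to 593 CPM and WT RVs 455 to 682 CPM.

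Matricellular proteins, which sit in the wound matrix and signal to cells rather than bear load, form a list that shares genes with the activated fibroblast list (Cilp, Comp, Postn and Thbs4 among them). Of its 17 genes, 12 were called higher and none lower, with a median of 1.62. Late RVs had 5.74, 37.6 and 75.3 CPM of Comp, and early RVs had 0.923, 1.54, 2.54, 0.665 and 2.19 CPM. Comp, cartilage oligomeric matrix protein, binds and aligns collagen fibrils and was among the largest rises (log2 fold change 4.63 ± 0.57, adjusted p = 0.00317). The level of Thbs4 was 7.95, 72.8 and 85.7 CPM in late RVs and 3.3, 4.2, 4.48, 4.92 and 6.03 CPM in early RVs. Thbs4, a thrombospondin of injured heart and muscle, rose likewise (log2 fold change 3.73 ± 0.49, adjusted p = 0.00336), with L2 lowest of the late animals and above all early ones. For Wisp2, late RVs gave 7.8, 17.8 and 34.3 CPM, and early RVs gave 1.19, 1.82, 1.33, 2.13 and 5.07 CPM. Wisp2 (now Ccn5), a protein of the connective tissue growth factor family, was highest among early animals in E5 and still did not overlap (log2 fold change 3.01 ± 0.43, adjusted p = 0.00362). Spp1 was at 1.47, 4.8 and 11.3 CPM in late RVs, against 0.264, 0.42, 0.605, 0.798 and 0.274 CPM in early RVs. Spp1, osteopontin, was scarce in early RVs, at 2 to 6 counts a library, and rose in late RVs (log2 fold change 3.42 ± 0.55, adjusted p = 0.00555). Without both L1 and L6, 8 matricellular genes and 8 activated fibroblast markers were still called, with medians of 1.54 and 1.63.

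Among the structural components, 21 of 30 collagen, fibrillin and microfibril genes were called higher and none lower, with a median of 1.08. Late RVs had 60.5, 180 and 208 CPM of Col8a1, and early RVs had 48, 36.6, 41.9, 34.6 and 45.9 CPM. Col8a1, a short-chain network collagen, separated the groups (log2 fold change 1.95 ± 0.26, adjusted p = 0.00336). The level of Mfap4 was 14.9, 40.3 and 90.5 CPM in late RVs and 7.38, 8.83, 6.9, 5.45 and 6.99 CPM in early RVs. Mfap4, a microfibril-associated glycoprotein of elastic fibres, did so as well (log2 fold change 2.67 ± 0.37, adjusted p = 0.00362). For Vcan, late RVs gave 97.5, 247 and 361 CPM, and early RVs gave 94.1, 63.1, 76.3, 64.4 and 76.2 CPM. Versican, from Vcan, is a large proteoglycan of provisional matrix, and its groups did not overlap (log2 fold change 1.66 ± 0.25, adjusted p = 0.0051). The fibrillar collagens that the study also measured by RT-qPCR overlapped between the groups. Col1a1 was at 53.4, 129 and 172 CPM in late RVs, against 27.2, 60.5, 41.5, 19 and 36 CPM in early RVs. Col1a1, a chain of type I collagen, rose (log2 fold change 1.78 ± 0.31, adjusted p = 0.00722), but late animal L2 lay within the early range. Late RVs had 167, 473 and 571 CPM of Col3a1, and early RVs had 149, 161, 192, 84.2 and 121 CPM. For Col3a1, the type III chain, the test was passed (log2 fold change 1.58 ± 0.29, adjusted p = 0.00901) and L2 again overlapped. Without both L1 and L6 Col1a1 and Col3a1 had adjusted p of 0.0549 and 0.0634, 6 of the 30 genes were called, and the median was 0.95. The 4 cKO RVs had 1221 to 2253 CPM of Col1a1 and 2303 to 5029 CPM of Col3a1, above every vector-treated animal.

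**Figure D2:**
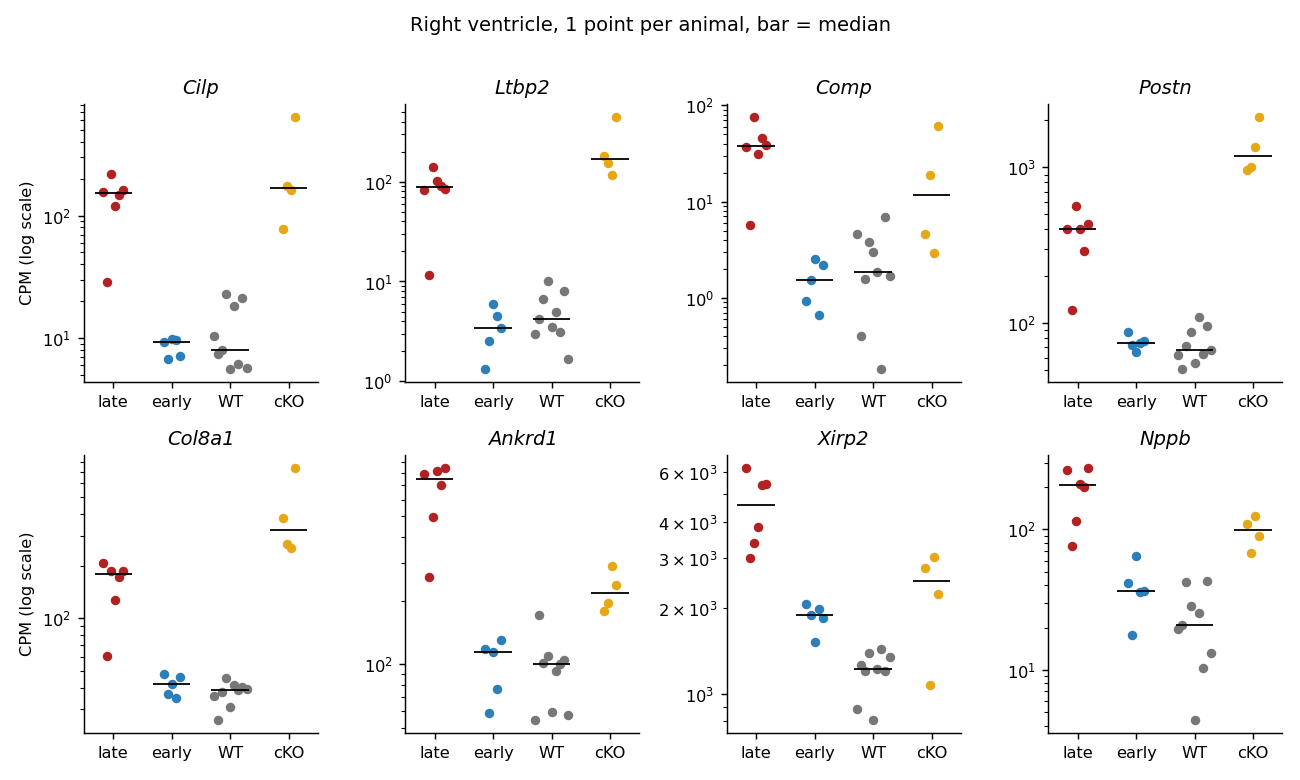
CPM on a log scale (y axis) of 8 genes called higher, with 1 point per animal in late, early, WT and cKO right ventricles (x axis) and a bar at the group median. Every late animal is above every early animal for all 8 genes. The lowest late point is L2 for 8 of 8 genes, and for Cilp it stands at 28.7 CPM against 9.92 CPM for the highest early animal.

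Proteins that coat, cut and join collagen rose in part. Small leucine-rich proteoglycans, which bind collagen fibrils and set their thickness, were called higher for 5 of 10 genes (median 0.83), and for 4 without both L1 and L6. The level of Fmod was 1.91, 17.3 and 28.1 CPM in late RVs and 0.659, 0.42, 1.21, 0.266 and 0.685 CPM in early RVs. Fmod, fibromodulin, had the largest of the 12 rises named by rule (log2 fold change 4.68 ± 0.60, adjusted p = 0.00336) and rested on 2 to 10 counts in each early library. For Bgn, late RVs gave 556, 1532 and 2331 CPM, and early RVs gave 474, 398, 477, 407 and 487 CPM. Bgn, biglycan, was far more abundant and rose too (log2 fold change 1.75 ± 0.26, adjusted p = 0.00448). Enzymes of crosslinking were called for 5 of 16 genes, all higher: the lysyl oxidases Lox, Loxl1, Loxl2 and Loxl3 and the procollagen peptidase Adamts2. The count was 8 without L2 and 2 without both L1 and L6. Loxl3 was at 6.92, 11.8 and 15 CPM in late RVs, against 2.5, 5.89, 4.11, 2.93 and 3.7 CPM in early RVs. The groups did not overlap for Loxl3 (log2 fold change 1.65 ± 0.26, adjusted p = 0.0051). Of 20 matrix proteases and inhibitors, 10 were called higher and 1 lower, with 4 higher without E1, 5 without E3 or L6 and 6 without E4 or L1. Late RVs had 1.47, 7.64 and 11.8 CPM of Timp1, and early RVs had 1.05, 0.42, 1.69, 0.532 and 1.23 CPM. Timp1, an inhibitor of matrix metalloproteinases and the last of the fibrosis genes assayed by RT-qPCR, rose (log2 fold change 2.85 ± 0.50, adjusted p = 0.00745), although L2 lay inside the early range. Its relative Timp4 was the gene called lower, at 12.5 to 33 CPM in late RVs and 24 to 78.9 CPM in early RVs (log2 fold change -1.13 ± 0.30, adjusted p = 0.0369), and that call was lost without any 1 of E3, E4, E5, L1, L4, L5, L6. By edgeR none of the 20 protease and inhibitor genes was called without both L1 and L6, where 13 had an unadjusted p below 0.05 and the median was 0.45.

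Some genes of signals that act on fibroblasts also rose. Transforming growth factor beta (TGF-beta) ligands are held in the matrix by latent binding proteins and drive collagen synthesis when released. Of 30 genes of this pathway, 11 were called higher and 1 lower (median 0.37), and 4 and none without both L1 and L6. The lower count was 0 without L1 or E4 and 2 without L3. The level of Ltbp2 was 11.5, 88 and 141 CPM in late RVs and 1.32, 2.52, 5.93, 4.52 and 3.43 CPM in early RVs. Ltbp2, a member of the latent TGF-beta binding protein family that attaches to microfibrils, rose (log2 fold change 4.59 ± 0.55, adjusted p = 0.00317) with no overlap. Storage or release of TGF-beta was not measured. For Tgfb2, late RVs gave 37.8, 91 and 101 CPM, and early RVs gave 32.3, 33.5, 27, 30.5 and 30.1 CPM. Tgfb2, a ligand, did likewise (log2 fold change 1.49 ± 0.21, adjusted p = 0.00362), and L2 at 37.8 CPM was the late animal nearest to the early ones. Inhba was at 8.54, 19.3 and 22.8 CPM in late RVs, against 6.2, 3.22, 6.17, 8.25 and 4.38 CPM in early RVs. Inhba, which encodes the activin A subunit, rose (log2 fold change 1.70 ± 0.27, adjusted p = 0.00555). In the Wnt list, 5 of 23 genes were called higher and 2 lower, and 3 and none without both L1 and L6. The lower count was 0 without E1, E3, L1, L4 or L5 and 1 without any other library but L2. Late RVs had 13.8, 47.9 and 165 CPM of Sfrp2, and early RVs had 5.01, 4.2, 6.53, 3.86 and 4.38 CPM. Sfrp2, a frizzled-related protein that binds Wnt ligands and procollagen processing enzymes, was highest in late animal L3 (log2 fold change 3.69 ± 0.53, adjusted p = 0.00362). The level of Frzb was 10.5, 27.5 and 62.3 CPM in late RVs and 7.51, 6.73, 7.62, 7.98 and 9.04 CPM in early RVs. Frzb, of the same family, rose as well (log2 fold change 2.03 ± 0.34, adjusted p = 0.00681).

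Another 4 of the 12 largest rises have roles outside these lists. For Nox4, late RVs gave 10.3, 29.7 and 58.4 CPM, and early RVs gave 3.03, 3.22, 5.81, 4.66 and 3.29 CPM. Nox4, an NADPH oxidase that makes hydrogen peroxide, separated the groups (log2 fold change 3.01 ± 0.37, adjusted p = 0.00317). Dio2 was at 13, 46.5 and 96.7 CPM in late RVs, against 9.1, 2.52, 4.72, 6.12 and 3.29 CPM in early RVs. Dio2, the deiodinase that turns thyroxine into the active hormone, did so too (log2 fold change 3.29 ± 0.45, adjusted p = 0.00362). Late RVs had 2.5, 8.12 and 14.8 CPM of Slc13a4, and early RVs had 0.395, 0.42, 0.968, 0.798 and 0.822 CPM. Slc13a4, a sodium-coupled sulphate transporter, was below 1 CPM in every early library and rose (log2 fold change 3.54 ± 0.46, adjusted p = 0.00336). The level of Angptl7 was 1.91, 4.6 and 21.5 CPM in late RVs and 0.923, 0.701, 0.605, 0 and 1.64 CPM in early RVs. Angptl7, a secreted angiopoietin-like protein, rose with a wide spread among late animals (log2 fold change 3.22 ± 0.72, adjusted p = 0.0173), and its adjusted p was 0.061 without both L1 and L6, where the other 11 of the 12 largest rises were still called. By the unequal-variance test the 12 largest rises had adjusted p of 0.0674 to 0.11.

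Genes of cardiomyocyte strain and failure rose next to the matrix genes. For Ankrd1, late RVs gave 259, 749 and 846 CPM, and early RVs gave 118, 58.9, 115, 76.8 and 131 CPM. Ankrd1, a titin-binding repressor induced by stretch, rose with no overlap (log2 fold change 2.73 ± 0.30, adjusted p = 0.00249), and it was also called by the unequal-variance test (adjusted p = 0.0333). Xirp2 was at 2987, 4597 and 6175 CPM in late RVs, against 2064, 1894, 1523, 1987 and 1836 CPM in early RVs. Xirp2, an actin-binding protein of the intercalated disc, separated the groups at a high level (log2 fold change 1.30 ± 0.18, adjusted p = 0.00362). Late RVs had 76.4, 207 and 274 CPM of Nppb, and early RVs had 41.7, 17.8, 65.1, 35.7 and 36.3 CPM. Nppb, which encodes B-type natriuretic peptide, rose likewise (log2 fold change 2.29 ± 0.36, adjusted p = 0.0051). The level of Nppa was 30, 329 and 636 CPM in late RVs and 17, 5.61, 24.6, 28.6 and 35.9 CPM in early RVs. Nppa, the atrial natriuretic peptide gene that failing ventricle re-expresses, rose (log2 fold change 4.00 ± 0.65, adjusted p = 0.00577), with L2 at 30 CPM inside the early range. Its log2 fold change was 4.21 (adjusted p = 0.0331) without L1 and L6, the libraries with atrial transcripts, and the highest late value was in L3, in which Myl7 was 0.233 CPM. For Myh7, late RVs gave 1055, 5638 and 11249 CPM, and early RVs gave 382, 3167, 378, 534 and 629 CPM. Myh7, the slow fetal myosin, also rose (log2 fold change 2.57 ± 0.66, adjusted p = 0.0313), but early animal E2 stood at 3167 CPM among early animals otherwise at 378 to 629 CPM, and the call was lost when any 1 of 8 libraries was left out (L1, L4, L5, L6, E1, E3, E4 or E5), with adjusted p of up to 0.0768.

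Over the list of 20 natriuretic and failure genes, 8 were called higher and 1 lower (median 0.76), with 2 lower without E1 or L2. Over 19 Z-disc and titin genes 5 were called, all higher. Without both L1 and L6 the counts were 4 failure genes and 2 Z-disc genes, all higher. The Z-disc, where thin filaments are anchored, also senses stretch. Ankrd23 was at 157, 228 and 362 CPM in late RVs, against 96.8, 109, 153, 95.2 and 87.7 CPM in early RVs. Ankrd23, a close relative of Ankrd1, rose (log2 fold change 1.20 ± 0.22, adjusted p = 0.00883). Late RVs had 161, 243 and 306 CPM of Synpo2l, and early RVs had 127, 134, 112, 134 and 133 CPM. Synpo2l, an actin-bundling Z-disc protein, did so as well (log2 fold change 0.91 ± 0.17, adjusted p = 0.00916), both with L1 and L6 among the highest late values. In the Hippo and YAP list, whose output factors act through TEAD, 5 of 21 genes were called higher and none lower: Ankrd1, Vgll2, Ctgf, Wwtr1 and Vgll3. Without both L1 and L6 the count was 2. The level of Ctgf was 121, 299 and 435 CPM in late RVs and 90.8, 61.7, 57.8, 138 and 135 CPM in early RVs. Ctgf (now Ccn2), a matricellular target of YAP, rose (log2 fold change 1.62 ± 0.31, adjusted p = 0.00943) with L2 inside the early range. For Wwtr1, late RVs gave 175, 204 and 211 CPM, and early RVs gave 150, 144, 138, 159 and 164 CPM. Wwtr1, the gene of the co-activator TAZ, rose by a small amount without overlap (log2 fold change 0.40 ± 0.08, adjusted p = 0.00992). Acta1, skeletal actin, another failure marker, was 28.2 to 170 CPM in late RVs and 7.01 to 72.8 CPM in early RVs and did not pass the test (adjusted p = 0.101).

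At the intercalated disc, 1 of 8 desmosomal genes (12.5%) and 2 of 17 other disc genes (11.8%) were called, against 8.93% of all genes. Without L2 the counts were 2 and 3. By edgeR no desmosomal gene was called without both L1 and L6, where 3 of the 8 had an unadjusted p below 0.05. Dsg2 was at 183, 196 and 277 CPM in late RVs, against 338, 351, 260, 308 and 298 CPM in early RVs. Dsg2, desmoglein-2, a desmosomal cadherin, fell (log2 fold change -0.56 ± 0.11, adjusted p = 0.0109), with L2 at 277 CPM inside the early range and a median of 212 CPM in WT RVs. Dsp, the plaque protein desmoplakin, was 2066 to 3021 CPM in late RVs and 1889 to 2548 CPM in early RVs (log2 fold change 0.18 ± 0.11, adjusted p = 0.334). Jup, plakoglobin, was 190 to 237 CPM in late RVs and 183 to 252 CPM in early RVs (log2 fold change -0.04 ± 0.09, adjusted p = 0.817). Among the other disc genes, Xirp2 was called higher and Ctnna3 lower. Late RVs had 126, 148 and 169 CPM of Ctnna3, and early RVs had 226, 207, 202, 203 and 193 CPM. Ctnna3, alpha-T-catenin, which binds plakophilin-2 at the disc, separated the groups (log2 fold change -0.48 ± 0.08, adjusted p = 0.0063). Its call was lost without both L1 and L6, where 1 of the 17 disc genes was called higher and 0 lower. Gja1, the gap junction protein connexin 43, was 839 to 1010 CPM in late RVs and 897 to 1490 CPM in early RVs (adjusted p = 0.402).

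A few calcium handling genes and more of the repolarising channels fell in late RVs. Of 22 calcium cycling genes, 3 were called (13.6%, against 8.93% of all genes) and all were lower, with 6 lower without L2. Over the 22 genes the median was -0.05, with 8 estimates above 0 and 14 below. By edgeR none was called without both L1 and L6, where 5 had an unadjusted p below 0.05. The level of Atp2a2 was 9287, 10391 and 15333 CPM in late RVs and 19512, 15343, 19015, 17609 and 15052 CPM in early RVs. Atp2a2 encodes SERCA2, the pump that refills the sarcoplasmic reticulum, and it fell (log2 fold change -0.63 ± 0.13, adjusted p = 0.0135). For Ryr2, late RVs gave 4335, 5225 and 6474 CPM, and early RVs gave 7808, 6443, 8086, 7451 and 6774 CPM. Ryr2, the calcium release channel, fell as well (log2 fold change -0.49 ± 0.11, adjusted p = 0.017). Pln was at 4750, 4876 and 6661 CPM in late RVs, against 9683, 6742, 7015, 7993 and 6939 CPM in early RVs. Pln, phospholamban, the brake on SERCA2, fell with no overlap between the groups (log2 fold change -0.53 ± 0.12, adjusted p = 0.0179). Late animal L2 was the highest late value of all 3 genes. The WT medians were 10221 CPM for Atp2a2, 5862 CPM for Ryr2 and 3660 CPM for Pln, below every early animal in each case.

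Potassium channel subunits set the resting potential and end the action potential, and 9 of 23 were called lower and 2 higher (median -0.42), with 7 to 11 lower and 1 to 2 higher when 1 library was left out (1 higher without E1, E3, L1 or L6). By edgeR none was called without both L1 and L6, where 14 of 22 had an unadjusted p below 0.05 and the median was -0.43. Late RVs had 52.5, 57.2 and 84.8 CPM of Kcnj5, and early RVs had 114, 101, 92.4, 96.2 and 105 CPM. Kcnj5, a subunit of the acetylcholine-activated channel, fell (log2 fold change -0.69 ± 0.12, adjusted p = 0.00722). The level of Kcnj2 was 145, 169 and 224 CPM in late RVs and 340, 280, 261, 252 and 229 CPM in early RVs. Kcnj2, the main inward rectifier of the ventricle, fell too (log2 fold change -0.62 ± 0.12, adjusted p = 0.00901), and neither gene overlapped between the groups. For Kcna4, late RVs gave 10.6, 12.6 and 16.5 CPM, and early RVs gave 6.46, 6.17, 5.08, 5.32 and 9.18 CPM. Kcna4, a voltage-gated subunit, went the other way and rose (log2 fold change 1.03 ± 0.18, adjusted p = 0.00755). Abcc9 was at 579, 655 and 833 CPM in late RVs, against 1209, 1024, 914, 859 and 958 CPM in early RVs. Abcc9, the regulatory subunit of the ATP-sensitive channel, fell (log2 fold change -0.56 ± 0.11, adjusted p = 0.0101). In the sodium channel list 3 of 9 genes were called lower (33.3%, against 8.93% of all genes), with 1 lower without L6, L1 or E4. Over the 9 genes the median was -0.06, with 4 estimates above 0 and 5 below. By edgeR none was called without both L1 and L6, where 4 had an unadjusted p below 0.05. Late RVs had 20.9, 29.2 and 52.8 CPM of Scn4a, and early RVs had 65.5, 69.8, 71.9, 53.5 and 63.8 CPM. Scn4a, the channel best known from skeletal muscle, separated the groups (log2 fold change -1.03 ± 0.20, adjusted p = 0.01).

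Several lists of mitochondrial fuel genes held genes that fell. For the 21 genes that break down branched-chain amino acids, 13 were called lower and none higher, all 21 estimates were below 0, and the median was -0.42. The level of Ivd was 155, 190 and 262 CPM in late RVs and 293, 297, 308, 316 and 291 CPM in early RVs. Ivd, which oxidises the leucine intermediate isovaleryl-CoA, fell with no overlap (log2 fold change -0.61 ± 0.11, adjusted p = 0.00883). For Ppm1k, late RVs gave 250, 280 and 482 CPM, and early RVs gave 643, 543, 439, 537 and 475 CPM. Ppm1k, the phosphatase that switches on the branched-chain keto acid dehydrogenase, fell (log2 fold change -0.74 ± 0.16, adjusted p = 0.0141), with L2 inside the early range. Bckdhb was at 24.3, 28 and 43.1 CPM in late RVs, against 45.2, 44.7, 47.5, 59.5 and 45.1 CPM in early RVs. Bckdhb, a subunit of that dehydrogenase, fell (log2 fold change -0.66 ± 0.14, adjusted p = 0.0149). Of 35 genes of fatty acid uptake and oxidation, the main fuel route of the adult heart, 12 were called lower and none higher (median -0.52). Late RVs had 108, 122 and 159 CPM of Echs1, and early RVs had 214, 176, 238, 200 and 169 CPM. Echs1, an enoyl-CoA hydratase of beta-oxidation, fell with no overlap (log2 fold change -0.65 ± 0.11, adjusted p = 0.00684). The level of Acadvl was 200, 254 and 371 CPM in late RVs and 402, 417, 614, 392 and 384 CPM in early RVs. Acadvl, the very long chain acyl-CoA dehydrogenase, fell as well (log2 fold change -0.73 ± 0.16, adjusted p = 0.015).

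Of 43 nuclear genes of the respiratory chain and ATP synthase, 16 were called lower and none higher (median -0.34). For Sdha, late RVs gave 663, 742 and 1071 CPM, and early RVs gave 1179, 1078, 1206, 1337 and 1051 CPM. Sdha, the flavoprotein of complex II, fell (log2 fold change -0.57 ± 0.12, adjusted p = 0.0126), with L2 at 1071 CPM the one late animal in the early range. Ndufs3 was at 125, 137 and 172 CPM in late RVs, against 213, 167, 232, 215 and 181 CPM in early RVs. Ndufs3, a core subunit of complex I, fell likewise and L2 again lay in the early range (log2 fold change -0.50 ± 0.10, adjusted p = 0.0104). Of 22 energy regulators, 2 were called (9.09%, against 8.93% of all genes), both lower, with 1 without E4 and 5 without L2. Late RVs had 233, 286 and 337 CPM of Ppargc1a, and early RVs had 405, 352, 355, 438 and 375 CPM. Ppargc1a, the co-activator PGC-1alpha, fell with no overlap (log2 fold change -0.42 ± 0.10, adjusted p = 0.0187). The level of Ppara was 41.4, 51.7 and 76 CPM in late RVs and 79.5, 71.9, 99.8, 89.5 and 82.5 CPM in early RVs. Ppara, the fatty acid receptor that controls oxidation genes, fell too, with L2 inside the early range (log2 fold change -0.62 ± 0.13, adjusted p = 0.0141). For Slc2a4, late RVs gave 147, 183 and 246 CPM, and early RVs gave 282, 258, 373, 307 and 280 CPM. Slc2a4, the insulin-responsive glucose transporter GLUT4, fell (log2 fold change -0.64 ± 0.12, adjusted p = 0.01). Pfkp was at 52.4, 116 and 141 CPM in late RVs, against 39.2, 45.1, 63, 50.4 and 38.9 CPM in early RVs. Pfkp, the platelet isoform of phosphofructokinase, rose instead, with L2 inside the early range (log2 fold change 1.23 ± 0.22, adjusted p = 0.00755). Of 23 genes of glucose use, it was the 1 called higher, and 4 were called lower, with 2 lower without any 1 of L1, L3, L4, L5, L6, E1, E3, E4. By edgeR none of the energy regulators or glucose genes was called without both L1 and L6, where 4 of 22 and 9 of 23 had an unadjusted p below 0.05.

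The counts of these metabolic calls changed with the libraries used. With 1 library left out, 4 (without E4) to 18 (without L2) of the branched-chain amino acid genes were called lower, 4 (without E1 or E3) to 24 (without L2) of the fatty acid genes and 5 (without E4) to 25 (without L2) of the respiratory genes. Without L6 the counts were 7, 6 and 8. By edgeR none was called without both L1 and L6, where 15 of 21, 23 of 35 and 24 of 43 had an unadjusted p below 0.05 and the medians were -0.38, -0.54 and -0.35.

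**Figure D3:**
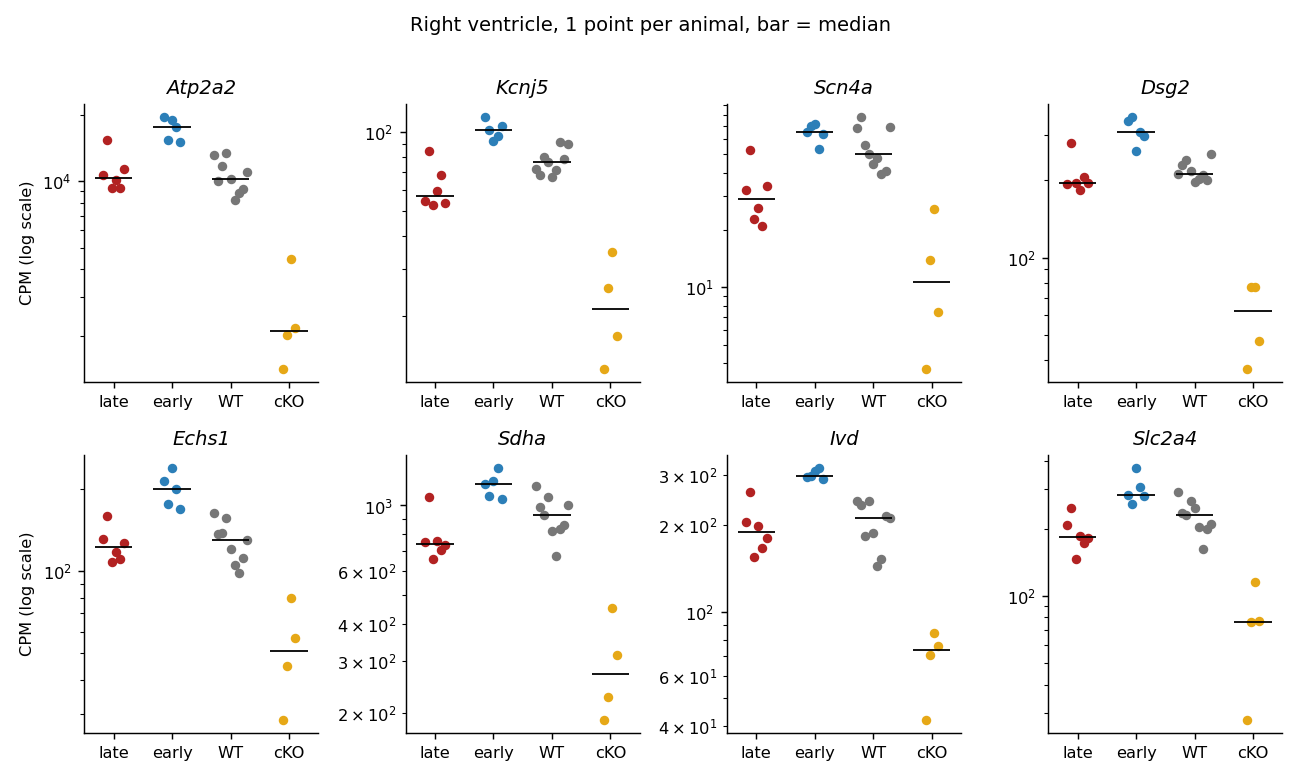
CPM on a log scale (y axis) of 8 genes called lower, with 1 point per animal in late, early, WT and cKO right ventricles (x axis) and a bar at the group median. Late medians are below early medians for all 8 genes, as for Atp2a2 with 10391 CPM in late and 17609 CPM in early RVs, and cKO medians are lower than late ones.

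Mdh1, cytosolic malate dehydrogenase of the malate-aspartate shuttle, was called lower and behaved unlike the rest. Late RVs had 0.573, 1.33 and 2.21 CPM of Mdh1, and early RVs had 62.1, 1.4, 175, 18.9 and 48.9 CPM. The early animals were split: E2 at 1.4 CPM lay within the late range and the others far above it. The fitted change was -5.50 ± 0.87 (adjusted p = 0.00548). WT RVs had 45.2 to 126 CPM and cKO RVs 1.07 to 12.7 CPM.

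The 12 largest falls were smaller than the largest rises, and Clcn1, Ano5 and Scn4a among them are known from skeletal muscle or muscle repair. The level of Tmprss13 was 2.58, 3.81 and 5.3 CPM in late RVs and 12.3, 9.95, 17.7, 9.18 and 9.86 CPM in early RVs. Tmprss13, a membrane-bound serine protease, led them (log2 fold change -1.58 ± 0.22, adjusted p = 0.00362) and was also called by the unequal-variance test (adjusted p = 0.0341). For Clcn1, late RVs gave 2.27, 4.2 and 8.39 CPM, and early RVs gave 12.4, 16.4, 13.9, 8.65 and 14.7 CPM. Clcn1, the chloride channel of skeletal muscle, fell (log2 fold change -1.52 ± 0.28, adjusted p = 0.00863). Ano5 was at 8.86, 11.7 and 29.7 CPM in late RVs, against 39, 33.2, 36.8, 43.4 and 35.6 CPM in early RVs. Ano5, a membrane protein of muscle repair, fell with L2 at 29.7 CPM just under the lowest early animal (log2 fold change -1.38 ± 0.26, adjusted p = 0.00885). Late RVs had 40, 50.3 and 70.2 CPM of Car14, and early RVs had 99.5, 83.2, 124, 113 and 84.4 CPM. Car14, a membrane carbonic anhydrase, fell (log2 fold change -0.94 ± 0.14, adjusted p = 0.00489). The level of Slc2a12 was 7.78, 10.9 and 16.2 CPM in late RVs and 27, 20.9, 25.6, 21.7 and 19.9 CPM in early RVs. Slc2a12, a further glucose transporter, fell (log2 fold change -1.01 ± 0.17, adjusted p = 0.00649). The remaining falls were Slc22a3, Lysmd4, Scn4a, Ly75, Ybey, Art5 and Ccbl2 (now Kyat3), with log2 fold changes of -1.08 to -0.88. Of the 12, 4 were called without both L1 and L6, namely Tmprss13, Lysmd4, Slc2a12 and Car14. In the skeletal muscle list, 2 of 4 tested genes were called lower and 1 higher (75%, against 8.93% of all genes). With 1 library left out, the lower count was 1 to 2 and the higher count 0 to 1. By edgeR none of the 4 was called without both L1 and L6, where 3 had an unadjusted p below 0.05.

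Some cell cycle genes rose in late RVs, at low levels. Of 20 measured, 8 were called higher and none lower (median 0.98). For Mki67, late RVs gave 19.4, 24.4 and 35 CPM, and early RVs gave 5.67, 9.25, 6.29, 5.19 and 13.2 CPM. Mki67, the proliferation antigen Ki-67, separated the groups (log2 fold change 1.74 ± 0.27, adjusted p = 0.0051). Top2a was at 6.09, 10.6 and 14.8 CPM in late RVs, against 4.22, 3.5, 4.23, 1.86 and 5.75 CPM in early RVs. Top2a, the topoisomerase of dividing cells, did so too (log2 fold change 1.40 ± 0.30, adjusted p = 0.0152). WT RVs had 5.55 to 37.1 CPM of Mki67 (median 15.2) and 2.43 to 16 CPM of Top2a (median 4.98), a range that spans most animals of both vector groups. The count was 4 without L6, L4 or E4, 5 without L1, and 1 without both L1 and L6.

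Immune genes changed in smaller numbers. Of 35 interferon-stimulated genes, 7 were called higher and none lower (median 0.51), with 3 without L6, L1, L5, E3 or E4, 4 without E1 and 13 without L3. By edgeR none was called without both L1 and L6, where 14 had an unadjusted p below 0.05. Late RVs had 5.59, 7.91 and 8.92 CPM of Zbp1, and early RVs had 3.16, 2.8, 3.02, 3.72 and 4.38 CPM. Zbp1, a sensor of nucleic acids, rose (log2 fold change 1.15 ± 0.20, adjusted p = 0.00755). The level of Oasl2 was 21.5, 35.7 and 45.8 CPM in late RVs and 21.4, 16.3, 17.9, 15.2 and 17.3 CPM in early RVs. Oasl2, an antiviral oligoadenylate synthase-like protein, rose as well and was highest in L2 (log2 fold change 0.98 ± 0.18, adjusted p = 0.00827). For B2m, late RVs gave 834, 959 and 1360 CPM, and early RVs gave 690, 575, 411, 672 and 603 CPM. B2m, the light chain of MHC class I, rose (log2 fold change 0.77 ± 0.15, adjusted p = 0.0109), being 1 of 2 called genes among 18 of antigen presentation (11.1%, and 4 genes without L3). Macrophage markers were called higher for 2 of 28 genes (7.14%, against 8.93% of all genes), Ms4a7 and Ctss. The count was 6 without L2, 4 without E2 and 1 without any 1 of L1, L4, L5, L6, E1, E3, E5. The list's summed level was 627 to 952 CPM in late RVs and 601 to 831 CPM in early RVs. By edgeR no chemokine of 16 was called, with 6 at an unadjusted p below 0.05 and 2 called by DESeq2, and no inflammatory cytokine gene of 21, with 10 at an unadjusted p below 0.05 and 2 called by DESeq2.

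Other cell types were read from their marker lists. By edgeR none of the macrophage, antigen presentation, endothelial, mural or fat cell genes was called without both L1 and L6, where 2 of 28, 10 of 18, 7 of 29, 3 of 14 and 5 of 12 had an unadjusted p below 0.05. Endothelial markers summed to 2673 to 3161 CPM in late RVs and 2777 to 3442 CPM in early RVs. Of 29, 2 were called (6.9%, against 8.93% of all genes), both lower (Aqp1 and Car4). The count was 1 (without L1, L4, L5, L6, E2, E3, E4 or E5) to 3 (without L2) when 1 library was left out. Mural markers summed to 3501 to 4110 CPM in late RVs and 3916 to 4379 CPM in early RVs, with 1 of 15 called (6.67%), and 2 without E2 or L2. Resting fibroblast markers summed to 3252 to 7218 CPM in late RVs and 3017 to 3468 CPM in early RVs, with 4 of 20 called higher and 1 lower, and 7 higher without L2. Within that list Pdgfra was 117 to 220 CPM in late RVs and 108 to 152 CPM in early RVs (adjusted p = 0.199), and Dcn, decorin, was 775 to 2011 CPM in late RVs and 705 to 804 CPM in early RVs (adjusted p = 0.0652). The smooth muscle and myofibroblast actin Acta2 was 87.7 to 188 CPM in late RVs and 69.3 to 190 CPM in early RVs (adjusted p = 0.654). Of the fat cell markers, Plin1 was at 0 in all 11 libraries and Adipoq at most 0.233 CPM, and 3 of 12 tested genes, all lipid-handling enzymes that muscle also uses, were called lower, with 1 (without E4, L1, L3, L4 or L5) to 5 (without L2) when 1 library was left out. The atrial list summed to 628 to 1302 CPM in late RVs and 504 to 766 CPM in early RVs, with Nppa and Dkk3 called higher of 11. The part of cell composition in the matrix and metabolic changes was not tested.

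**Figure D4:**
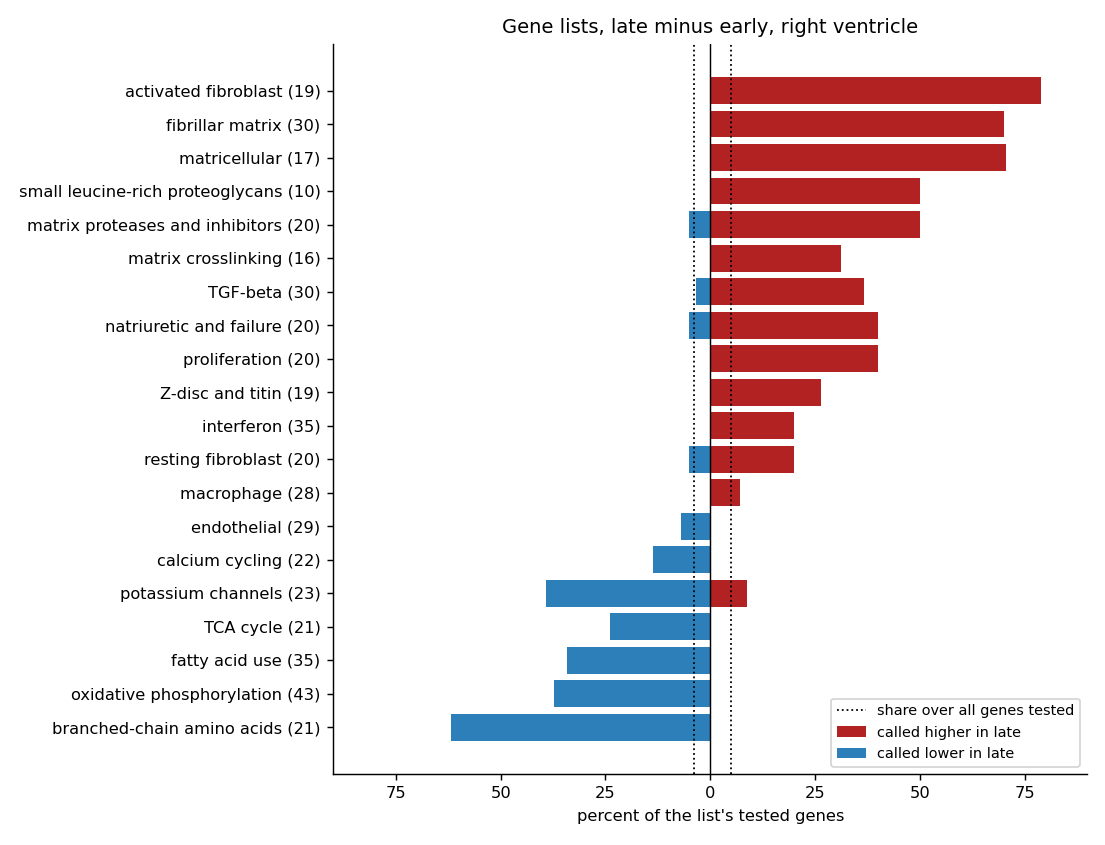
Share of each list's tested genes (number in brackets) called higher (red, to the right) or lower (blue, to the left) in late RVs, in percent on the x axis. Dotted lines mark the shares over all 13253 genes, 4.97% higher and 3.95% lower. Matrix and fibroblast lists extend to the right, up to 15 of 19 genes, and fuel and channel lists to the left, up to 13 of 21 genes.

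Each vector group was also set against WT RVs. These contrasts share libraries with each other and with the timing comparison and are given side by side. Of 13452 genes, 4877 (36.3%) were called between late and WT RVs, and of 13488 genes, 3981 (29.5%) between early and WT RVs. The median log2 fold change of the activated fibroblast markers was 1.64 in late against WT RVs, with 15 of 19 called higher and 1 lower, and -0.27 in early against WT RVs, with 1 of 19 called higher. For collagen and microfibril genes it was 0.67 in late against WT RVs, with 17 of 29 called higher and none lower, and -0.33 in early against WT RVs, with none called higher and 9 lower. Fuel and channel lists are given in the same way. Branched-chain amino acid genes had a median of -0.07 in late against WT RVs, with 4 of 21 called higher, and 0.46 in early against WT RVs, with 13 called higher. Fatty acid genes had -0.08 in late against WT RVs, with 2 of 35 called higher and 9 lower, and 0.32 in early against WT RVs, with 16 called higher and none lower. Respiratory genes had 0.15 in late against WT RVs, with 7 of 43 called higher, and 0.39 in early against WT RVs, with 28 called higher. Potassium channels had -0.20 in late against WT RVs, with 4 called higher and 8 lower of 22, and 0.18 in early against WT RVs, with 6 called higher and 1 lower of 23.

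The left ventricles titled with the same animal numbers give separate libraries. There, 0 of 13234 genes (0%) were called between late and early mice by edgeR (smallest adjusted p = 0.372). Of those tested, 964 had an unadjusted p below 0.05, and DESeq2 called 57. The RV and LV libraries of L6 differed in Xist and Ddx3y, as given above, so their pairing by animal is uncertain. Of the genes called higher in the RV, 600 of 633 tested in the LV had an LV estimate above 0. Of those called lower, 481 of 523 had one below 0. The LV medians were 0.37 and -0.19, against RV medians of 0.86 and -0.53. Both sets were picked for their RV change, and the LVs carry the same animal numbers, so the shared sign is no independent repeat. Cilp was at 13.9, 74.9 and 161 CPM in late LVs and 8.3 to 17.6 CPM in early LVs (log2 fold change 2.67 ± 0.60). Ankrd1 was at 274, 523 and 1082 CPM in late LVs and 145 to 358 CPM in early LVs (log2 fold change 1.24 ± 0.36). Comp was at 1.41, 22.6 and 43.6 CPM in late LVs and 0.401 to 3.82 CPM in early LVs (log2 fold change 3.72 ± 0.84). These genes were chosen for their RV change. The difference between ventricles was tested directly, as RV minus LV of late minus early, and 1 of 13961 genes (0.00716%) was called. That gene was Mdh1, with a difference of -6.82 (adjusted p = 0.0401) that was lost when each animal was taken as a block, where 0 genes were called. With that block 1215 genes had an unadjusted p below 0.05, and DESeq2 without it called 5. For genes other than Mdh1, edgeR did not show a response of different size in the 2 ventricles.

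**Figure D5:**
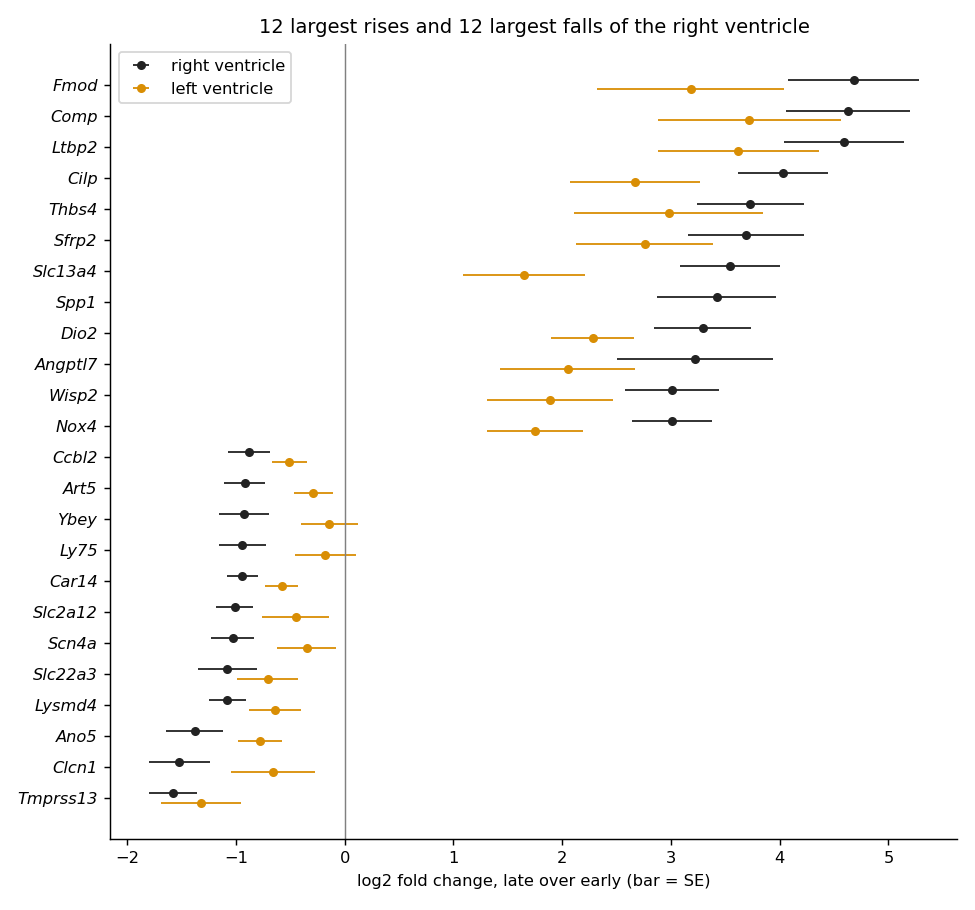
Log2 fold change of late over early (x axis, bars are SE) in the right ventricle (black) and left ventricle (orange) for the 12 largest RV rises and 12 largest RV falls (y axis). All 23 genes tested in both ventricles lie on the same side of 0 in both, as for Cilp with 4.03 in the RV and 2.67 in the LV. The genes were chosen for their RV change. Spp1 was not tested in the LV.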

How the data were processed

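Each of the 64 libraries is titled with 1 ventricle of 1 mouse (32 animals). Each was made with a stranded kit after removal of ribosomal RNA, and is called polyA RNA in the labels. The expected counts (estimated counts per gene) and the TPM values (transcripts scaled by length and depth) were made by the authors with fastp, Salmon 1.8.0 and tximport on GRCm39 (per the labels and the study's methods) and deposited as tables, and the deposited table of effective gene lengths was used for 1 alternative. Estimated counts were rounded to whole numbers, which changed a library total by at most 0.000524%. The 37 mitochondrially encoded genes and 1 row without a gene name (at most 0.00136% of counts) were left out. Of the per-sample columns, none was left unmapped.

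Groups came from the titles. Each comparison was fitted with edgeR 4.0.16 in R 4.3.3 on its own libraries alone (TMM scaling, filterByExpr, quasi-likelihood test, two-sided, Benjamini-Hochberg adjusted p below 0.05 over all genes tested), and single values were compared by exact permutation tests over animals. CPM are estimated counts per 1e+06 on the TMM scale. The difference between ventricles was an interaction term over the 22 libraries of the 11 animals, without an animal block in the main fit. The RV and LV libraries are paired by animal number in the titles, and their deviations from the group means correlated at -0.046 to 0.247 (over 0.1 in 7 of 11 animals). The lowest value was that of L6, whose pairing is uncertain. The scripts were tested on simulated counts. Alternatives were DESeq2 1.42.0, limma 3.58.1 on log2(TPM + 1) and log2(TPM + 0.1), an unequal-variance test, other scalings and filters, covariates, and each library left out in turn. With 7.39 M to 9.79 M counts used in each RV library (M, 1e+06), 1 CPM rests on about 7 to 10 counts. The p-values measure the spread between libraries, each taken as a separate animal. For L1 and L6 that is uncertain, as L6 may hold RNA of more than 1 animal. If L1 and L6 share RNA, the fits that hold both understate the spread between animals, and their p-values are too small.

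The gene lists and members were chosen with earlier results of these data known, so no list is independent evidence. The genes named are Pkp2, the 5 genes assayed by RT-qPCR in the study (Nppa, Nppb, Col1a1, Col3a1 and Timp1), the 12 called genes with the largest rise and the 12 with the largest fall among genes whose late and early libraries did not overlap (mean of at least 5 CPM in the higher group, called also without L6), up to 4 called members of smallest p in each list, and defining markers. Timp4, Sprr1a, Mdh1 in the interaction and genes listed by name alone were singled out after their values were seen. Promoter sequences are from RefSeq on GRCm38.p6.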

Additional observations from a re-analysis of the deposited data

Results flagged for a closer look

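Of 292 sets of late or early values tested for a single far animal (Dixon's test at 95%), 30 had one (10.3%), and chance alone flags about 1 in 20. The sets share the same animals and many flags fell on L2, so an excess over chance was not tested. In late animal L2 the far values were on the early side of its group: Ano5 29.7 CPM (group median 11.7), Dsg2 277 (196), Tnni3 3771 (2751), Atp2a2 15333 (10391), Fgf13 110 (80.3), Abcc9 833 (655), Dgat2 151 (91.1), Ndufs3 172 (137), Sdha 1071 (742), Uqcrc1 716 (532), Decr1 388 (233), Pfkfb1 39.3 (20.3), Ppm1k 482 (280), Aldh6a1 390 (238) and Ckm 274 (188) were above the other late animals. Adamts2 at 24.6 CPM (51.2) and Tgfb2 at 37.8 CPM (91) were below them.

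Other late animals stood apart in single genes. Pkp2 was 3804 CPM in L5 (group median 1791), Sfrp2 was 165 CPM (47.9) and Angptl7 21.5 CPM (4.6) in L3, Tpm3 was 141 CPM (125) in L1, and B2m was 1360 CPM (959) in L4.

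Among early animals, E2 had Myh7 at 3167 CPM (group median 534), Lipe at 46.4 CPM (28.6) and Rpl3 at 93.8 CPM (122). E3 had Acadvl at 614 CPM (402), Itga11 at 8.83 CPM (4.52) and a mitochondrial share of 23.8% (29.9%). Bckdhb was 59.5 CPM (45.2) in E4, and Wisp2 was 5.07 CPM (1.82) in E5.

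The difference between ventricles in the late against early change passed the test for Mdh1 (-6.82 on the log2 scale, adjusted p = 0.0401 by edgeR), and no gene passed it with each animal as a block. Its values in the RV are given above, and the cause was not tested.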

How the results depend on the processing

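The count of 1183 genes called between late and early RVs became 1805 with DESeq2 (944 higher, 861 lower, 1182 of them shared), 654 and 622 with limma on log2(TPM + 1) and log2(TPM + 0.1), and 17 with the unequal-variance test (16 shared). Leaving out 1 library gave 590 to 1846: 590 without L1, 1846 without L2, 593 without L4, 768 without L5, 684 without L6 (671 shared), 747 without E1, 673 without E3 and 665 without E4. Without L1 and L6 together, an alternative chosen after seeing the data, it was 98 (95 shared), with 4 late animals left. The other alternatives gave 853 to 1453, among them 1325 with Y-linked expression and 1453 with the mitochondrial share as a covariate. In the LV, DESeq2 called 57 genes, and edgeR called 0 to 7 when 1 library was left out (7 without L2). The difference between ventricles was called for 0 genes with the replicate block (animal), 5 with DESeq2, and 0 to 1 with 1 animal left out (1 without E2). Late and early RV animals share no replicate number, so no paired fit of that comparison exists. Pkp2 kept log2 fold changes of 0.26 to 0.74 and was never called, and the difference in mitochondrial share ran between -0.353 and 2.01 percentage points with 1 library left out. Counts against WT stayed within 1.5 times. Of 4248 values over 177 named genes, 3591 kept their call, 622 lost it, 35 gained one, and none reversed. Of 144 called named genes, 105 kept the call with each single library left out. Counting error limits genes below about 1 CPM, where early libraries held 2 to 10 counts of Spp1 and Fmod.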

Other observations

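Some further gene groups gave a few calls each. Of 21 immediate early genes, Myc, Jun and Jund were called higher (14.3%, against 8.93% of all genes) and none lower. The count was 1 without any 1 of L1, L4, L5, L6, E3, E4, E5. The proto-oncogene Myc was at 7.95, 9.1 and 10.6 CPM in late RVs (lowest, median and highest), against 3.95, 1.82, 2.06, 5.72 and 5.07 CPM in early RVs (log2 fold change 1.33 ± 0.27, adjusted p = 0.0124). Of 18 complement genes, 4 were called higher and 1 lower, with 1 (without E4) to 11 (without L2) higher when 1 library was left out. Serping1, the C1 inhibitor, had 124, 197 and 327 CPM in late RVs and 97.6, 114, 102, 102 and 115 CPM in early RVs, with no overlap (log2 fold change 1.00 ± 0.19, adjusted p = 0.00901). Of 22 heat shock and chaperone genes, 3 were called (13.6%, against 8.93% of all genes), all higher, including the small heat shock protein genes Hspb1 and Hspb6. The count was 1 (without L1, L4, L6, E3, E4 or E5) to 5 (without L2) when 1 library was left out. Sprr1a, a small proline-rich protein induced in stressed cardiomyocytes, had 4.24, 0.442, 12, 16.2, 9.93 and 4.23 CPM in L1 to L6 and at most 0.28 CPM in early RVs. In early RVs 0 to 2 counts stood behind it, and it was called over all 11 libraries (adjusted p = 0.00586). It was not called without L6, and so fell outside the 12 largest rises named by rule. The cytosolic ribosome list had 3 of 32 genes called (9.38%, against 8.93% of all genes), all higher (1 without any 1 of L1, L3, L4, E1, E3, E4, E5). The proteasome list had 0 of 29 called by edgeR (3 at an unadjusted p below 0.05, 0 by DESeq2). For the glucocorticoid response list it was 0 of 14 by edgeR (2 at an unadjusted p below 0.05, 1 by DESeq2). Without both L1 and L6 the adjusted p was 0.0768 for Myc and 0.0566 for Serping1. By edgeR no gene of the immediate early, complement, heat shock or ribosome lists was called without those libraries, where 7 of 21, 10 of 18, 5 of 22 and 9 of 32 had an unadjusted p below 0.05.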
